A study of Saccharomyces cerevisiae with 9 samples.

Results

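The proteases of the yeast vacuole were followed as transcripts in 9 RNA-seq libraries of budding yeast. The set was defined by name, with 7 genes looked up by symbol or locus tag: PEP4, PRB1, PRC1, CPS1, APE3, DAP2 and PBI2. Of these, 6 had a row among the 5205 genes of the deposited tables, and all 6 passed the filter on low counts. PBI2, which encodes the cytosolic inhibitor of proteinase B, was not analysed here.

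The cells were W303 strains, of which 3 libraries were K504E-white (cdc13-K504E, white colonies), 3 were K504E-red (cdc13-K504E, red colonies) and 3 were WT-red (wild type, red colonies). Cdc13 binds single-stranded telomeric DNA. All groups had been in YPD, a rich glucose medium, for 15 days in stationary phase, and no dilution was made, per the labels. The labels call the libraries biological replicates and hold no white wild type, so mutation and colour cannot be told apart in K504E-white against WT-red.

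The vacuole is the lysosome of yeast, and many of its proteases, though not all, are made as inactive precursors that pass through the secretory pathway. Proteinase A (Pep4) starts a cascade that activates such precursors, and proteinase B (Prb1) carries it further. Together these enzymes degrade the cargo of autophagy and endocytosis and recycle amino acids when cells starve, as they do in stationary phase. Small cytosolic proteins that bind and inhibit single vacuolar proteases are known as well: Pbi2 for proteinase B and Tfs1 for carboxypeptidase Y.

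Library totals ranged from 27388755 to 34634199 counts, and the 6 genes had 3648 to 66294 counts each per library. Across genes, replicates of a group had correlations of log2 CPM between 0.992 and 0.995, where genes are not independent replicates. CDC13 itself had 21.2 ± 0.507 CPM in K504E-white, 27.7 ± 5.18 CPM in K504E-red and 25.2 ± 2.15 CPM in WT-red (SD, n = 3 each), and counts per gene cannot show the K504E change. CPM is the count per 1e6 reads of the library size after TMM scaling.

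The genes lie apart from each other on contigs of a W303 assembly. PEP4 (YPL154C) is on contig 154 from 144588 to 145805, plus strand, and PRB1 (YEL060C) on contig 100 from 32626 to 34533, minus strand. PRC1 (YMR297W) is on contig 19 from 53152 to 54750, plus strand, and APE3 (YBR286W) on contig 163 from 72693 to 74306, plus strand. DAP2 (YHR028C) is on contig 240 from 31942 to 34398, minus strand, and CPS1 (YJL172W) on contig 126 from 55058 to 56788, minus strand. Their coding lengths were 1218 to 2457 bp. None of the coding regions overlapped another gene of the table: the nearest neighbour was 236 bp away for CPS1 and 508 bp away for PRB1, with the other 4 genes between. A search of the S288C genome found 0 further copies of any of them at 95% identity over at least 100 bp.

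Compared per length, the transcripts fell into an abundant and a moderate class in all 3 groups. The FPKM (reads per kilobase of gene per 1e6) deposited by the authors serve for these levels. APE3 was at 1183 ± 20.3 FPKM in K504E-white, 911 ± 6.63 FPKM in K504E-red and 820 ± 12.6 FPKM in WT-red (SD, n = 3 each here and below). PRC1 was at 863 ± 19.7 FPKM in K504E-white, 913 ± 20.1 FPKM in K504E-red and 720 ± 10.8 FPKM in WT-red. These encode aminopeptidase Y and carboxypeptidase Y, which trim proteins and peptides from opposite ends. PEP4 was at 750 ± 15.3 FPKM in K504E-white, 900 ± 37.2 FPKM in K504E-red and 708 ± 44.8 FPKM in WT-red. PRB1 was at 587 ± 27.1 FPKM in K504E-white, 718 ± 35.1 FPKM in K504E-red and 570 ± 29.3 FPKM in WT-red. The 4 genes above encode soluble proteases, and each stood above 94.6% to 97.3% of all genes in mean FPKM.

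The 2 genes whose products are made as membrane proteins were lower. DAP2, for dipeptidyl aminopeptidase B, was at 114 ± 3.06 FPKM in K504E-white, 115 ± 4.68 FPKM in K504E-red and 101 ± 3.38 FPKM in WT-red. CPS1, for carboxypeptidase S, was at 74.5 ± 2.63 FPKM in K504E-white, 82.4 ± 7.59 FPKM in K504E-red and 73.4 ± 2.35 FPKM in WT-red. In WT-red the order was APE3, PRC1, PEP4, PRB1, DAP2, CPS1, in which PRC1 and PEP4 did not differ beyond their spread. The first place was taken by APE3 alone in K504E-white, whereas APE3, PRC1 and PEP4 lay within their spread of each other in K504E-red. The 6 genes together took 0.570% ± 0.00966 of the counts in K504E-white, 0.582% ± 0.0192 in K504E-red and 0.491% ± 0.0150 in WT-red (SD, n = 3 each).

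**Figure D1:**
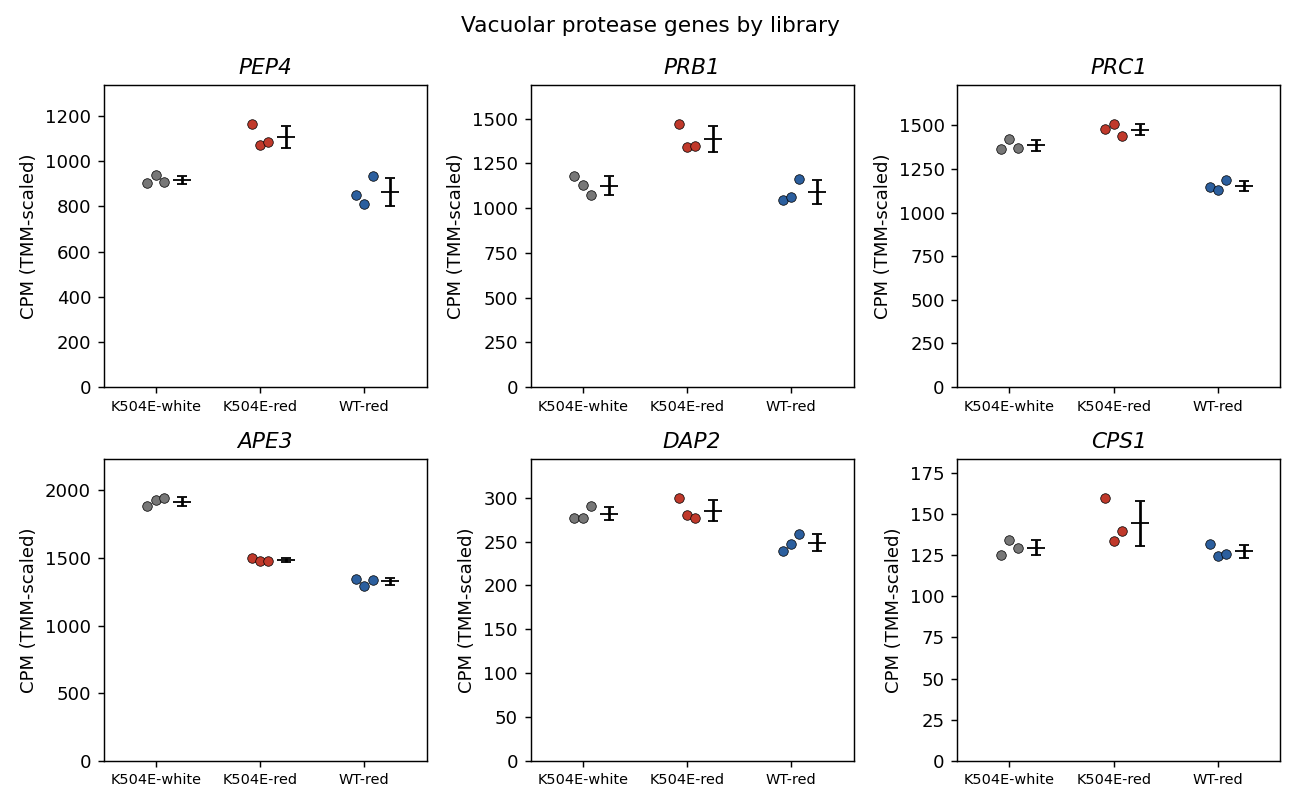
Expression of the 6 vacuolar protease genes in CPM (TMM-scaled, linear axis from 0), with 1 point per library for K504E-white, K504E-red and WT-red, and the mean ± SD beside the points (n = 3). PEP4 and PRB1 stand highest in K504E-red, PRC1 and DAP2 are higher in both mutant groups than in WT-red, and APE3 is highest in K504E-white at 1883 to 1943 CPM.

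The first comparison, K504E-red against WT-red, shows the mutant beside the wild type among red colonies. All 6 vacuolar protease genes rose, by 1.12 to 1.28-fold. Under alternative settings of the fit 4 to 6 of them were called higher, with fewer than 6 in 15 of 18 settings. Among the 5172 genes tested, 25.8% were called higher and 21.7% lower in this comparison. The median log2 fold change was 0.27 over the 6 genes and 0.03 over all genes tested. In all 6 the lowest K504E-red library lay above the highest WT-red library, a pattern found in 29.7% of all genes. In bulk cultures, more RNA per cell and more cells that express a gene cannot be told apart.

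PEP4 and PRB1, the endopeptidases at the head of the activation cascade, rose by similar amounts. PEP4 had 1164, 1073 and 1087 CPM in K504E-red, against 852, 810 and 934 CPM in WT-red. Every K504E-red library lay above every WT-red library. The log2 fold change was 0.36 (SE 0.0571, edgeR adjusted p 7.15e-05), where edgeR adjusted p is the quasi-likelihood p after Benjamini-Hochberg correction over all genes tested. PRB1 had 1468, 1340 and 1349 CPM in K504E-red, against 1044, 1062 and 1164 CPM in WT-red. Replicate 1 was the highest K504E-red library for both genes and replicate 3 the highest WT-red library. The log2 fold change of PRB1 was 0.35 (SE 0.0583, edgeR adjusted p 0.000116).

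The carboxypeptidases were PRC1 and CPS1. PRC1 had 1481, 1506 and 1441 CPM in K504E-red, against 1149, 1130 and 1184 CPM in WT-red, a log2 fold change of 0.35 (SE 0.0484, edgeR adjusted p 1.39e-05). Its groups were well separated and tight. CPS1 had 160, 134 and 139 CPM in K504E-red, against 132, 125 and 126 CPM in WT-red. One K504E-red library, replicate 1, stood above the rest, and the gap between the groups was narrow. The log2 fold change of CPS1 was 0.18 (SE 0.0651, edgeR adjusted p 0.0309), and this call was kept under 4 of 18 alternative settings only. Leaving out any library except K504E-red replicate 2 ended it, those of K504E-white included, with edgeR adjusted p between 0.0742 and 0.202. The call was also lost with upper quartile scaling, other count filters, limma on FPKM or the 2 groups alone. Adjusted p there ran from 0.0641 (limma on log2(FPKM + 1)) to 0.0969 (edgeR on the 2 groups alone).

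The exopeptidases that act from the amino end had smaller fold changes than PEP4, PRB1 and PRC1, a difference that was not tested. APE3 had 1503, 1476 and 1481 CPM in K504E-red, against 1344, 1296 and 1341 CPM in WT-red. Its log2 fold change was 0.16 (SE 0.0472, edgeR adjusted p 0.00858). That call was lost in a fit of the 2 groups alone (edgeR adjusted p 0.0533) and when K504E-red replicate 2 (0.0721) or replicate 3 (0.0562) was left out. DAP2 had 300, 280 and 277 CPM in K504E-red, against 240, 248 and 259 CPM in WT-red, a log2 fold change of 0.20 (SE 0.0518, edgeR adjusted p 0.00466). Leaving out WT-red replicate 1, its lowest library, gave an edgeR adjusted p of 0.0562.

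The second comparison, K504E-white against WT-red, joins the mutation with the change of colour. Here 3 genes rose (APE3, PRC1 and DAP2) and 3 were not called (PEP4, PRB1 and CPS1), where 23.3% of all genes were called higher and 23.5% lower. The median log2 fold change was 0.13 over the 6 genes and -0.01 over all genes tested. APE3 changed most. It had 1883, 1928 and 1943 CPM in K504E-white, against 1344, 1296 and 1341 CPM in WT-red, so that every white library lay far above every WT-red library. K504E-white lay wholly above WT-red in 27.8% of all genes and in 3 of the 6. The log2 fold change of APE3 was 0.53 (SE 0.0473, edgeR adjusted p 5.42e-08), a larger change than in 87.7% of the genes tested. PRC1 had 1366, 1423 and 1370 CPM in K504E-white, against the WT-red values above, and again the groups did not overlap. Its log2 fold change was 0.26 (SE 0.0484, edgeR adjusted p 0.000227).

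DAP2 had 277, 277 and 290.2 CPM in K504E-white, all above the WT-red maximum of 259 CPM. Its log2 fold change was 0.18 (SE 0.0518, edgeR adjusted p 0.00881). That call was lost without K504E-white replicate 3 (edgeR adjusted p 0.0758) or without WT-red replicate 1 (edgeR adjusted p 0.0882). PEP4 had 903, 938 and 910 CPM in K504E-white, within reach of WT-red replicate 3 at 934 CPM. The log2 fold change of PEP4 was 0.08 with a 95% interval of -0.04 to 0.20 (edgeR adjusted p 0.246). For PRB1, K504E-white had 1176, 1126 and 1071 CPM, which overlapped the WT-red range, with a log2 fold change of 0.05 and an interval of -0.08 to 0.17 (edgeR adjusted p 0.561). CPS1 had 125, 134 and 129 CPM in K504E-white, with a log2 fold change of 0.03 and an interval of -0.11 to 0.16 (edgeR adjusted p 0.778). For all 3 of these genes the upper bound lay below their log2 fold change in K504E-red against WT-red. That value has an error of its own (for CPS1 an interval of 0.04 to 0.32), so this is no test between the colours. The direct comparison below called PEP4 and PRB1 but not CPS1 (edgeR adjusted p 0.0528).

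**Figure D2:**
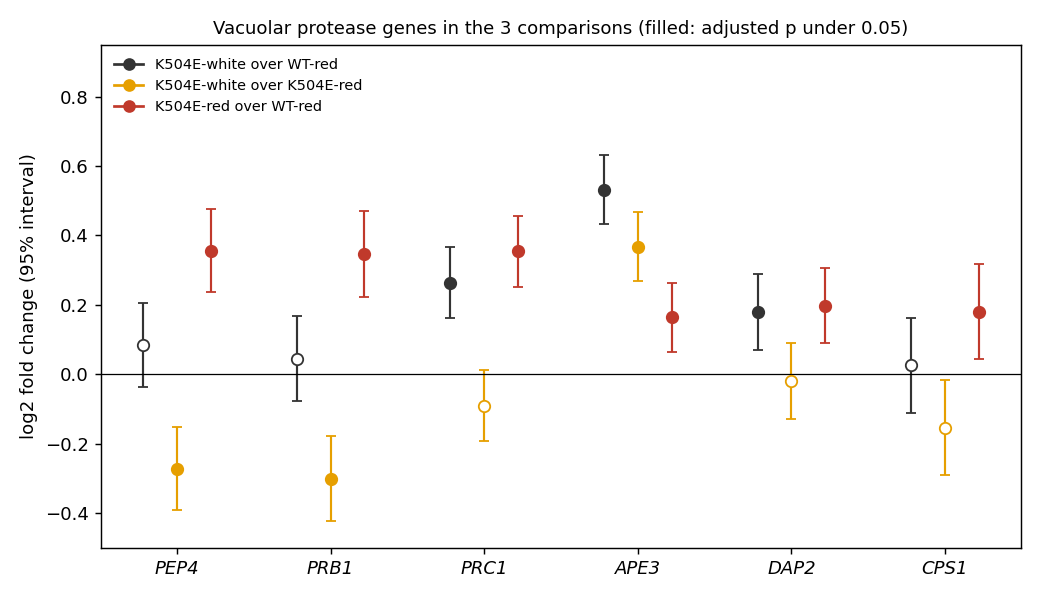
Log2 fold changes of the 6 vacuolar protease genes with 95% intervals, in K504E-white over WT-red, K504E-white over K504E-red and K504E-red over WT-red. Filled points passed an adjusted p of 0.05 by edgeR. All 6 genes are above 0 in K504E-red over WT-red, and between the colours of the mutant PEP4 and PRB1 are below 0 and APE3 is above it.

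The third comparison, K504E-white against K504E-red, sets the colours of the same mutant beside each other. PEP4 and PRB1 were lower in the white colonies, APE3 was higher, and PRC1, DAP2 and CPS1 were not called. Over all genes, 27.3% were called lower and 27.2% higher, so the calls among the 6 are near that background in number and in their split. The log2 fold change of PEP4 was -0.27 (SE 0.0570, edgeR adjusted p 0.000592), and that of PRB1 was -0.30 (SE 0.0583, edgeR adjusted p 0.000290). For APE3 it was 0.37 (SE 0.0472, edgeR adjusted p 3.67e-06). K504E-white lay wholly above K504E-red for APE3, as in 30.7% of all genes, and wholly below it for PEP4 and PRB1, as in 31.1%. All 3 calls were kept under each of the 18 alternative settings.

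PRC1 was slightly lower in every K504E-white library than in any K504E-red library (1423 CPM at most, against 1441 CPM at least), but the test did not call it. Its log2 fold change was -0.09 with a 95% interval of -0.19 to 0.01 (edgeR adjusted p 0.124). DAP2 had a log2 fold change of -0.02 with an interval of -0.13 to 0.09 (edgeR adjusted p 0.778). CPS1 had -0.15 with an interval of -0.29 to -0.02 (edgeR adjusted p 0.0528), and it was called lower without K504E-red replicate 2 (edgeR adjusted p 0.0236). All 3 comparisons draw on the same 9 libraries, and each pair of them shares a group.

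Ratios within a library do not depend on how libraries are scaled to each other. The FPKM ratio of PRB1 to PEP4 was 0.831, 0.766 and 0.752 in K504E-white, 0.805, 0.797 and 0.792 in K504E-red, and 0.782, 0.837 and 0.796 in WT-red. The 3 groups overlapped in this ratio, so the 2 endopeptidase transcripts kept close to the same proportion in every library. The ratio of APE3 to PEP4, by contrast, was 1.57, 1.55 and 1.61 in K504E-white, 0.975, 1.04 and 1.03 in K504E-red, and 1.19, 1.21 and 1.08 in WT-red. No group overlapped another in it. Both pairs were picked after the values had been seen and are given as descriptions, with no test.

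TFS1, which encodes the carboxypeptidase Y inhibitor, could be set against PRC1, its target. TFS1 had 468, 491 and 477 CPM in K504E-white, 607, 533 and 519 CPM in K504E-red, and 405, 355 and 400 CPM in WT-red. None of the groups overlapped. Its log2 fold change was 0.52 (SE 0.0643, edgeR adjusted p 5.40e-06) in K504E-red against WT-red, and it was 0.31 (SE 0.0642, edgeR adjusted p 0.000741) in K504E-white against WT-red. Set against K504E-red, K504E-white gave -0.21 (SE 0.0640, edgeR adjusted p 0.0107), a call that was lost when K504E-red replicate 1 was left out (edgeR adjusted p 0.0754). Inhibitor and protease transcripts thus moved in the same direction against WT-red.

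The ratio of TFS1 to PRC1 in FPKM was 0.829, 0.836 and 0.843 in K504E-white, 0.993, 0.857 and 0.872 in K504E-red, and 0.854, 0.761 and 0.818 in WT-red. On the log2 scale the mean ratio differed by 0.16 between K504E-red and WT-red (exact permutation test, two-sided, p = 0.1). The difference was 0.05 between K504E-white and WT-red (exact permutation p = 0.5) and -0.11 between K504E-white and K504E-red (exact permutation p = 0.1). With 3 libraries against 3, a p of 0.1 is the smallest that this test can give. The K504E-red mean rests largely on replicate 1, and the difference from WT-red was 0.09 on the log2 scale without it. That of K504E-white from K504E-red was -0.05 without the same library.

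**Figure D3:**
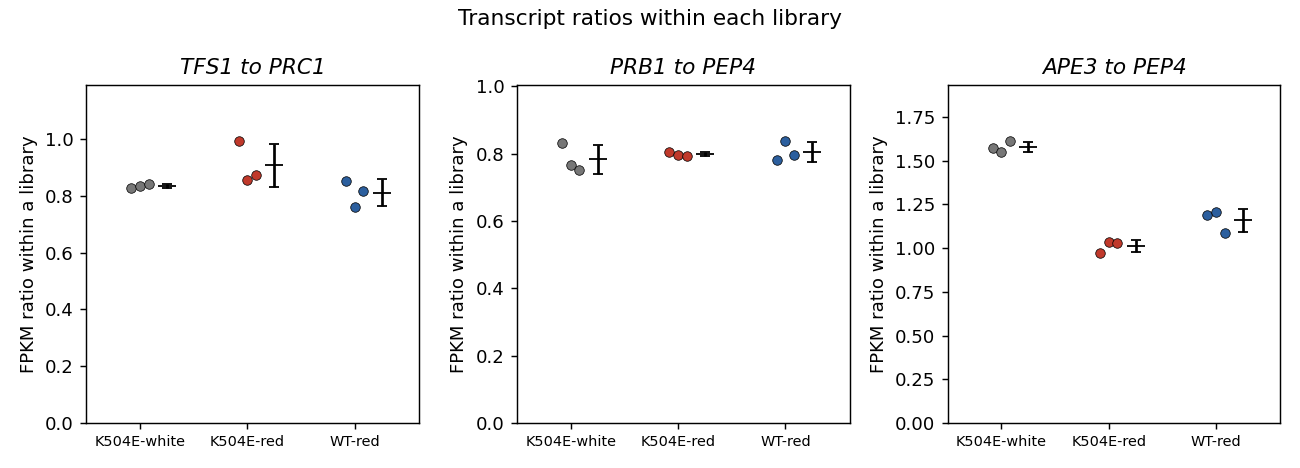
Ratios of FPKM within each library for TFS1 to PRC1, PRB1 to PEP4 and APE3 to PEP4 (linear axes from 0), 1 point per library, with mean ± SD beside the points (n = 3). The PRB1 to PEP4 ratio lies between 0.752 and 0.837 in all 9 libraries, whereas the APE3 to PEP4 ratio separates the groups.

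Thioredoxin joins Pbi2 in the LMA1 complex, which takes part in vacuole fusion and inheritance. TRX2 had 370, 417 and 397 CPM in K504E-white, 1174, 1062 and 1142 CPM in K504E-red, and 729, 793 and 857 CPM in WT-red. This was the largest change between colours among the genes examined here, with a log2 fold change of -1.51 (SE 0.0653, edgeR adjusted p 1.90e-12) in K504E-white against K504E-red. Against WT-red, TRX2 fell by 1.01 on the log2 scale in K504E-white (SE 0.0646, edgeR adjusted p 6.40e-10) and rose by 0.51 in K504E-red (SE 0.0639, edgeR adjusted p 6.17e-06). TRX1, its paralog, had 246 to 276 CPM in K504E-white, 277 to 312 CPM in K504E-red and 262 to 289 CPM in WT-red. It was called between the colours only (log2 fold change -0.19, SE 0.0597, edgeR adjusted p 0.0112), and that call was lost without K504E-white replicate 2 (edgeR adjusted p 0.0742) or K504E-red replicate 2 (edgeR adjusted p 0.0681).

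The other vacuolar hydrolases formed a list of 10 genes, of which 9 were tested. In K504E-red against WT-red, 8 rose and PFF1, for a metalloprotease of the vacuolar membrane, was not called. Under the alternative settings 6 to 8 rose. Over all genes 25.8% were called higher and 21.7% lower, and the median log2 fold change of the list was 0.34. In K504E-white against WT-red, 5 rose and 2 fell (median 0.16), beside 23.3% higher and 23.5% lower over all genes. In K504E-white against K504E-red 1 rose and 3 fell (median -0.12), beside 27.2% higher and 27.3% lower over all genes. APE1, for aminopeptidase I, which reaches the vacuole from the cytosol by a selective autophagy route, changed most. It had 636, 640 and 663 CPM in K504E-white, 1823, 1670 and 1739 CPM in K504E-red, and 1006, 945 and 1164 CPM in WT-red. The 3 groups of APE1 were fully separated, with K504E-red on top and K504E-white lowest. Its log2 fold change was -0.68 (SE 0.0662, edgeR adjusted p 1.56e-07) in K504E-white and 0.75 (SE 0.0661, edgeR adjusted p 2.46e-07) in K504E-red against WT-red. Between the colours it was -1.43 (SE 0.0671, edgeR adjusted p 6.25e-12). APE1 and APE3 thus stood on opposite sides of WT-red in K504E-white. AMS1, for the vacuolar alpha-mannosidase, rose by 0.60 in both mutant groups on the log2 scale (SE 0.0747 in K504E-white and 0.0748 in K504E-red). PFF1 was the hydrolase that rose between the colours, by 0.26 (SE 0.0716, edgeR adjusted p 0.00477).

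**Figure D4:**
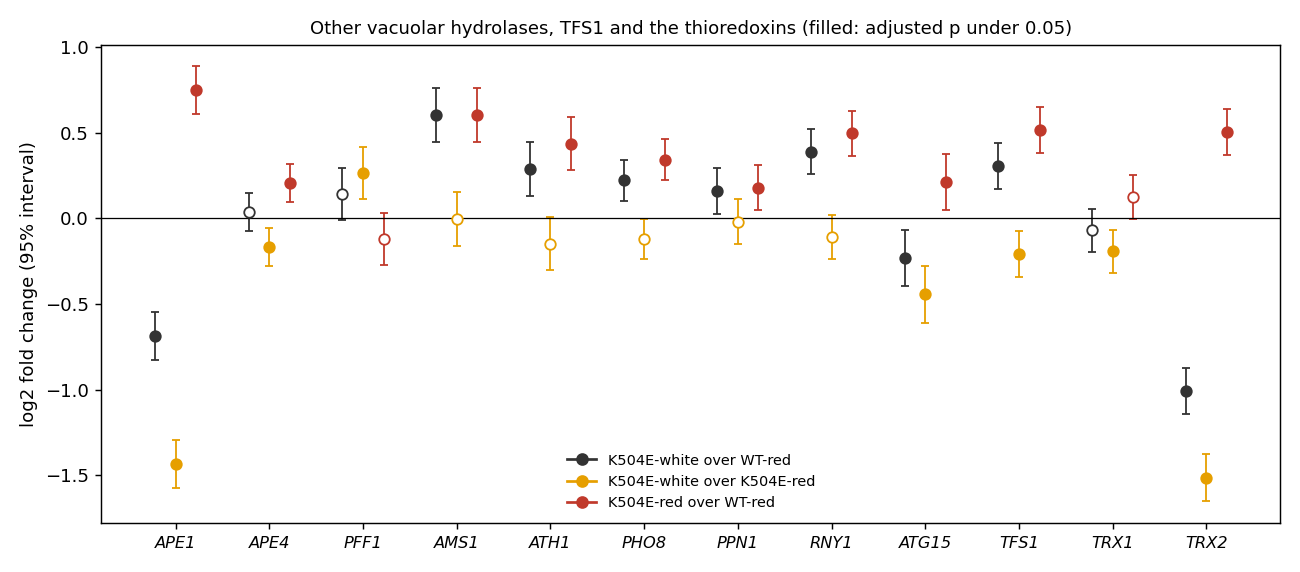
Log2 fold changes with 95% intervals for 9 other vacuolar hydrolase genes, TFS1, TRX1 and TRX2, in K504E-white over WT-red, K504E-white over K504E-red and K504E-red over WT-red. Filled points passed an adjusted p of 0.05 by edgeR. APE1 and TRX2 lie above 0 in K504E-red over WT-red and below 0 in the comparisons of K504E-white, with APE1 at -1.43 and TRX2 at -1.51 between the colours.

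Vacuolar proteases reach their destination mainly by way of the endosome. Of 14 genes of this route, 13 were tested. In K504E-red against WT-red, where 25.8% of all genes were called higher, 8 of the 13 were (median log2 fold change 0.17). Only 3 to 6 were under the alternative settings. PEP12, the endosomal syntaxin gene, rose most (0.33, SE 0.0658, edgeR adjusted p 0.000520). In K504E-white against WT-red, where 23.3% of all genes were called higher and 23.5% lower, 1 rose and 1 fell. The gene that rose was PEP1, for the sorting receptor of carboxypeptidase Y (0.40, SE 0.0508, edgeR adjusted p 5.01e-06), and the one that fell was VPS29, for a retromer subunit that helps return that receptor (-0.29, SE 0.0683, edgeR adjusted p 0.00191). VPS35, VPS26, VPS5 and VPS17, for the other retromer subunits, were not called in K504E-white against WT-red (-0.01, -0.05, -0.04 and 0.07). In K504E-white against K504E-red 5 of the 13 fell, VPS29 the most (-0.46, SE 0.0683, edgeR adjusted p 1.73e-05). The share of all genes called lower there was 27.3%.

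Among the 4 genes of the AP-3 adaptor, which carries cargo past the endosome, APM3 was called lower in K504E-red against WT-red (-0.17, SE 0.0649, edgeR adjusted p 0.0442). Over all genes, 21.7% were called lower in that comparison. Between the colours, where 27.2% of all genes were called higher and 27.3% lower, APM3 (0.17) and 1 other gene were called higher and APL6 lower (-0.15). The APM3 call against WT-red was lost without K504E-red replicate 3, WT-red replicate 1 or WT-red replicate 2 (edgeR adjusted p 0.0755, 0.0641 and 0.0880). Between the colours, APM3 was not called without K504E-white replicate 1 or 2 or K504E-red replicate 2 or 3 (edgeR adjusted p 0.0688 to 0.115), nor APL6 without any one of K504E-white replicates 2 and 3 and the 3 K504E-red libraries (0.0506 to 0.140). Of the 10 genes for tethering and fusion at the vacuole, 2 rose in K504E-red against WT-red, led by the SNARE gene NYV1 (0.43, SE 0.0608). The share of all genes called higher there was 25.8%. In that comparison 1 tethering gene was called lower under 13 of 18 alternative settings, though not in the fit reported. In K504E-white against WT-red 3 rose, led by the SNARE gene VAM7 (0.33, SE 0.0999), and VPS33 fell (-0.38, SE 0.103). Over all genes, 23.3% were called higher and 23.5% lower there. In K504E-white against K504E-red 2 rose, led by VAM3, the vacuolar syntaxin gene (0.47, SE 0.0727), and 2 fell, led by VPS33 (-0.36, SE 0.103). The shares over all genes there were 27.2% higher and 27.3% lower. The VAM7 call was lost without K504E-white replicate 2 or 3 or WT-red replicate 1, with edgeR adjusted p of 0.0951, 0.0575 and 0.0648 in that order.

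A further list held 11 genes for related aspartyl, subtilisin-type and amino- or carboxy-terminal proteases. In K504E-red against WT-red 4 rose and 2 fell, in K504E-white against WT-red 2 rose and 2 fell, and in K504E-white against K504E-red 2 rose and 6 fell. Against WT-red the shares over all genes were 25.8% higher and 21.7% lower in K504E-red and 23.3% higher and 23.5% lower in K504E-white. Between the colours, 27.2% of all genes were called higher and 27.3% lower. The 6 genes called lower there were 4 to 6 under the alternative settings. Several of the 11 genes belong to the aspartyl protease family of PEP4 as yapsins, which sit at the plasma membrane. Among them, YPS6 had a log2 fold change of 0.60 (SE 0.106) in K504E-white and 0.68 (SE 0.107) in K504E-red against WT-red. MKC7 had -0.54 (SE 0.0673) in K504E-white and -0.93 (SE 0.0684) in K504E-red against WT-red. Between the colours, YPS1 fell most (-0.69, SE 0.0597). BAR1, for a secreted aspartyl protease that cleaves the alpha-factor pheromone, rose most (0.60, SE 0.0558).

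Likeness of pattern was measured as the root mean square difference in log2 CPM, each gene centred on its own mean over the 9 libraries. Among the 6 genes, PEP4 and PRB1 were the closest pair at 0.0470, and APE3 and PRB1 the most distant at 0.289. DAP2 and PRC1 were the next closest pair at 0.0783, and all 5 pairs with APE3 lay between 0.179 and 0.289. Against 2665 other genes that ranged over at least 0.5 on the log2 scale, the gene nearest to PEP4 was PTK2 (0.0261), for a protein kinase, which was also nearest to PRB1 (0.0428). Next came RAD26 (0.0460) for PEP4 and RIM15 (0.0588) for PRB1. PRC1 was nearest to PPZ2 (0.0502) and CIT1 (0.0502), the gene of mitochondrial citrate synthase. APE3 was nearest to TDA3 (0.0339) and AIM45 (0.0391), CPS1 to BPH1 (0.0522) and GLD1 (0.0675), and DAP2 to SDS3 (0.0729) and TPK2 (0.0751). PRB1, PRC1, CPS1 and DAP2 themselves ranged over less than 0.5 (0.491, 0.415, 0.358 and 0.322). Other genes with so small a range were not compared, so nearer genes may exist. The median distance to the other genes was 0.278 to 0.352 for the 6 genes. The points share their libraries and group means, so these distances describe patterns only.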

How the data were processed

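RNA was extracted and poly(A)-selected libraries were made by a sequencing provider, per the labels. The deposited counts are whole numbers per gene without normalization, and the deposited FPKM equal the count divided by coding length and by 1 factor per library (0.986 to 1.03 times the count sum), as checked against the authors' tables. Gene positions are those of a W303 assembly, per the file headers. Aligner, counter and strand setting are not given in the sources used here. Symbols came from RefSeq R64 of S288C by locus tag. Blank lines were skipped.

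Genes were filtered with filterByExpr (5172 of 5205 retained), scaled with TMM and tested with edgeR 4.0.16 in R 4.3.3: quasi-likelihood, group as the only term, all 9 libraries, two-sided, Benjamini-Hochberg adjustment over all genes, called under 0.05. SE came from the F statistic. Ratios were tested with scipy 1.17.1. The fit was tested on simulated data. Copies were searched with BLAST 2.17.0, and plots drawn with matplotlib 3.10.9. Alternatives were DESeq2 size factors, upper quartile scaling, the DESeq2 1.42.0 Wald test, filters of at least 1 count or of 10 in every library, limma 3.58.1 on log2(FPKM + 1) or log2(FPKM + 0.1), fits of 2 groups, a replicate block and omission of each library.

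The 7 genes and the lists were chosen with earlier results of these data known. Named from the other lists were the called genes with the largest change in each direction, and, as nearest in pattern, 2 genes for each of the 6. Of the lists, ATG42, PAI3 and VPS21 were not analysed here.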

Additional observations from a re-analysis of the deposited data

Results flagged for a closer look

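The effect of the mutant relative to WT-red differed between its colours for 18 of the genes named, tested as K504E-white against K504E-red by edgeR. Since both effects share WT-red, this is the same contrast as in the report and adds no separate evidence. Part of these genes had been named for their call in this very contrast, so their number is not a result. Over all genes tested, 27.2% were called higher and 27.3% lower between the colours. Log2 fold changes between the colours were -0.27 for PEP4, -0.30 for PRB1 and 0.37 for APE3. They were -0.21 for TFS1, -1.51 for TRX2 and -1.43 for APE1. They were -0.19 for TRX1 and 0.26 for PFF1. In the sorting and fusion lists they were 0.17 for APM3, -0.15 for APL6, -0.24 for PEP12, -0.46 for VPS29, 0.47 for VAM3, -0.36 for VPS33 and 0.40 for VAM7. Among the related proteases they were 0.40 for MKC7, 0.60 for BAR1 and -0.69 for YPS1. No batch is named in the labels, so a batch that followed colour cannot be told apart from it.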

How the results depend on the processing

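Of the 12 calls among the 6 protease genes, 8 kept direction and call under all 18 alternatives; the others, for CPS1, APE3 and DAP2, are given with their values in the report. The number of genes called higher in K504E-red against WT-red was 6, and 4 to 6 under the alternatives (4 to 5 when 1 library was left out). For K504E-white over WT-red it was 3, and 2 when K504E-white replicate 3 or WT-red replicate 1 was left out. Between the colours, 1 was higher under all of them, and 2 were lower, or 3 without K504E-red replicate 2. Uncalled values near 0 changed sign. With 1 library left out, PRB1 ranged from -0.0223 to 0.0950 and CPS1 from -0.0349 to 0.0254 for white mutant over wild type, and DAP2 from -0.0404 to 0.0173 between the colours. For CPS1 in K504E-white over WT-red the value was -0.00973 with genes of at least 1 count and -0.00954 with at least 10 counts in every library. The median over all genes in that comparison was -0.00716 in the fit reported, and -0.0421 and -0.0419 under those filters in the same order. The cause of the sign changes was not tested. Over all comparisons and settings the median over all genes lay between -0.042 and 0.042 on the log2 scale. Of 756 counts over the other lists, 91 moved by more than 1.5 times, among them endosomal sorting genes called higher in K504E-red against WT-red (8, or 3 to 6) and related proteases called lower in K504E-white against WT-red (2, or up to 5). Against WT-red, counts of other hydrolases were 3 to 5 higher (5 as reported) and 1 to 2 lower (2 as reported) for K504E-white. For K504E-red they were 6 to 8 higher (8 as reported) and 0 to 1 lower (0 as reported). AP-3 genes were 0 to 2 lower (1 as reported) for K504E-red against WT-red. Tethering genes were 1 to 2 higher (2 as reported) and 0 to 1 lower (0 as reported) for K504E-red, and 1 to 2 lower (1 as reported) for K504E-white. Between the colours, AP-3 calls fell to 0 at the lowest, in both directions, and TFS1 was called or not.

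The log2 difference in the TFS1 to PRC1 ratio ranged from 0.0939 to 0.200 (K504E-red against WT-red), 0.000268 to 0.0838 (K504E-white against WT-red) and -0.155 to -0.0485 (between the colours) when 1 library was left out. Ratios with PBI2 and PAI3 were planned and not run. Same-numbered libraries did not deviate together (correlations -0.110 to 0.0274 over 9 pairs, none above 0.1, and 0 of 9 libraries correlated best with its own number), so the numbers were not taken as pairs. With a replicate block, 6 genes were called higher for K504E-red over WT-red, 3 for K504E-white over WT-red, and 1 higher and 2 lower between the colours, as without it.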
